A study of Mus musculus with 12 samples.

Results

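The genes described here encode enzymes, carriers and transporters of fatty acid oxidation in mitochondria and peroxisomes. A list of 43 mouse genes was given by symbol. Of these, 42 were listed in the deposited table, as 63 transcripts among 22699 transcripts and 12287 genes in all. Acad10, a mitochondrial acyl-CoA dehydrogenase family gene, was not analysed here. The values come from RNA sequencing of whole mouse aortae. Mice of the first group were fasted for 24 h (6 libraries) and those of the other were labelled control (6 libraries), and all mice were C57BL/6 at 7 weeks of age. Fat was dissected away from the vessels before freezing, per the labels' protocols. The labels used here name neither sex nor the diet of the control mice. The comparison asks how 24 h without food changes the RNA of the aorta.

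Fatty acid oxidation starts when a synthetase couples a fatty acid to coenzyme A. The carnitine shuttle carries long chains into the mitochondrion, where a repeating spiral of dehydrogenation, hydration, another dehydrogenation and thiolysis shortens the chain and releases acetyl-CoA. Peroxisomes shorten very long and branched chains by a parallel route with their own enzymes. In fasting liver, heart and brown fat this pathway is known to be induced, largely through the nuclear receptor PPARα. In the vessel wall, endothelial cells, smooth muscle cells and adipocytes around the vessel all hold such enzymes.

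Values are FPKM (sequenced fragments divided by transcript length and by the library's total), and a gene's level is the sum of its listed transcripts. The 3 numbers given for a group are its lowest, median and highest library, and means are ± SD over 6 libraries. Each difference is the fasted mean minus the control mean of log2(FPKM + 1), with its SE, and these understate the change of low genes. Adjusted p-values are from limma with Benjamini-Hochberg adjustment over all genes tested, and a gene rose or fell only if its adjusted p was under 0.05. Per library the listed FPKM added up to between 299588 and 327492, with 21853 to 22197 transcripts above 0. Depth in reads is unknown, because only FPKM was used. Nothing in the labels says that replicates are separate animals, so the p-values reflect the spread among these libraries alone, which may be partly technical. In bulk tissue, fewer cells of a type and less RNA per cell cannot be told apart. The library fasted 3 stood apart from the other 11 on the second principal component, which held 12.8% of the variance.

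Of the 42 listed members, 41 passed the filter on low values and were tested. Fasted aortae held more RNA for the entry step of mitochondrial oxidation, for the dehydrogenases of longer chains and for a thiolase. In all 14 members rose (Cpt1a, Cpt1b, Slc25a20, Acadvl, Acadl, Acadm, Echs1, Acaa2, Ech1, Eci2, Etfa, Etfdh, Acot1 and Ehhadh), 2 fell (Decr2 and Acad11) and 25 did not pass the threshold. That is 39.0% of the members tested, beside 31.7% of all 12063 genes tested. The members that rose make 34.1% of those tested, beside 13.8% of all genes, and the members that fell make 4.88%, beside 17.9% of all genes. The groups did not overlap in 12 members, beside 17.0% of all genes. In 11 of these every fasted library lay above every control library, a pattern that 6.78% of all genes showed. Among them, Acot1 passed the filter only through its fasted libraries. In 1 member, Decr2, every fasted library lay below every control library, as for 10.2% of all genes. The median difference was 0.083 over the members and -0.024 over all genes tested.

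By role, 3 of 9 genes of activation and the carnitine shuttle rose and none fell, with a median difference of 0.099. Of 5 mitochondrial acyl-CoA dehydrogenases, 3 rose and none fell, with a median of 0.18. Of 5 genes of mitochondrial hydration, dehydrogenation and thiolysis, 2 rose and none fell, with a median of 0.20. Of 5 isomerases and reductases, which serve mitochondria, peroxisomes or both, 2 rose and 1 fell, with a median of 0.054. The 1 that fell was Decr2, a peroxisomal enzyme. Of 3 electron transfer flavoprotein genes, 2 rose and none fell. Of 11 other tested genes of peroxisomal transport, oxidation and export, 1 rose and 1 fell, with a median of 0.081. Of 3 thioesterases, 1 rose. The differences between these counts were not tested.

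**Figure D1:**
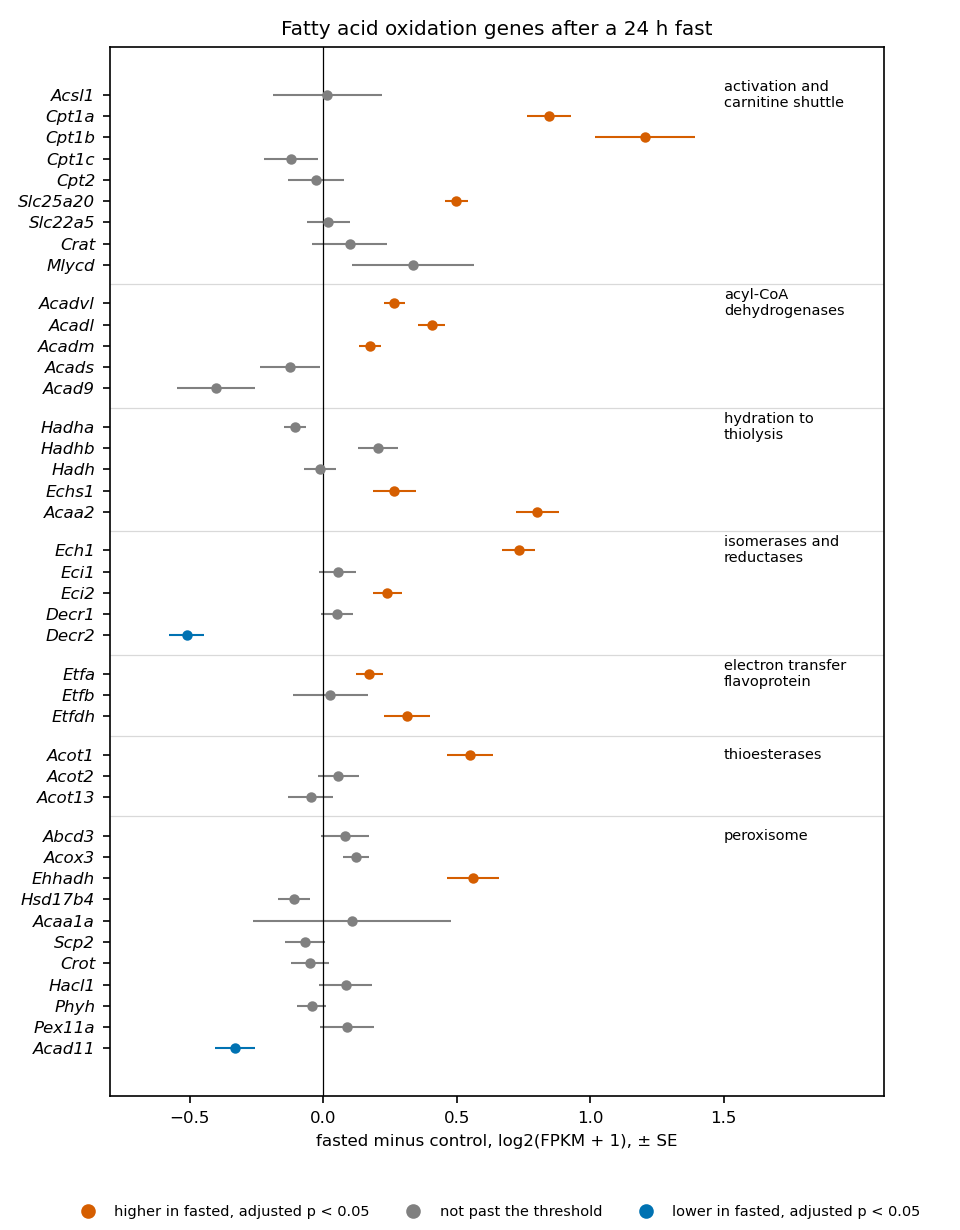
Difference in log2(FPKM + 1), fasted minus control, ± SE, for the 41 members tested, from 6 libraries per group and grouped by role. Orange points passed the adjusted p threshold above 0 (14 members), blue points passed it below 0 (2 members) and grey points did not pass it. Cpt1b, Cpt1a, Acaa2 and Ech1 lie farthest to the right and Decr2 farthest to the left.

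Carnitine palmitoyltransferase 1 sits in the outer mitochondrial membrane, joins long-chain acyl groups to carnitine and is the step that malonyl-CoA inhibits. Cpt1a, the liver form (ENSMUSG00000024900, chr19:3322334-3385733, plus strand, GRCm38), had 41.3, 45.2 and 51.8 FPKM in fasted aortae, against 21.7, 24.4 and 29.1 FPKM in control aortae. The groups did not overlap, and fasted 1 was the highest library. The means were 45.3 ± 3.84 FPKM in fasted and 24.9 ± 3.18 FPKM in control aortae, a ratio of 1.82 (difference 0.84 ± 0.082, adjusted p = 1.29e-05). Nuclear receptors of the PPAR family bind, with RXR, to pairs of the letters AGGTCA separated by 1 base, so promoters were searched for these letters on both strands. The window of Cpt1a from 250 bases before to 50 after the RefSeq start (chr19:3323051-3323350, plus strand, GRCm38.p6) is shown because Cpt1a was the most abundant of the 3 Cpt1 genes, and its capitals mark the reverse complement of a single AGGTCA.
Cpt1a promoter: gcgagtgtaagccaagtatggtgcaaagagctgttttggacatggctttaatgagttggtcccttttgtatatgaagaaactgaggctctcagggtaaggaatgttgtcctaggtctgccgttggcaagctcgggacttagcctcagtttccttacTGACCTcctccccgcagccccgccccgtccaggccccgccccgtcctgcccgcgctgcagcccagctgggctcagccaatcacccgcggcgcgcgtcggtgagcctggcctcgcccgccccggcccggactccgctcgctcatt

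Cpt1b, the muscle form that is also abundant in brown fat and heart (ENSMUSG00000078937, chr15:89416405-89425863, minus strand), had 2.20, 3.58 and 5.29 FPKM in fasted aortae, against 0.388, 0.989 and 2.03 FPKM in control aortae. The lowest fasted library, fasted 4, still lay above the highest control library, control 6. Its mean ratio of 3.55 was the largest of any listed member (difference 1.21 ± 0.19, adjusted p = 0.000427). On the annotation 81.4% of its exon bases are shared with Gm44502, a gene on the same strand that was not analysed here, and reads of both could be counted to either. Cpt1c, a form found mainly in neurons with little transferase activity, had 5.11, 5.46 and 6.74 FPKM in fasted aortae, against 4.93, 6.18 and 7.96 FPKM in control aortae, and did not pass the test (difference -0.12 ± 0.10, adjusted p = 0.397).

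Per length, Cpt1a was thus the main form in both groups. It made up 83.1 ± 3.00% of the summed FPKM of the 3 genes in fasted aortae and 77.6 ± 2.31% in control aortae (SD, n = 6 each). Cpt1b made up 6.58 ± 1.94% in fasted and 3.01 ± 1.38% in control aortae. Cpt1c made up 10.3 ± 1.38% in fasted and 19.4 ± 2.18% in control aortae, and its lowest control share, 16.5%, lay above its highest fasted share, 12.6%.

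Slc25a20, the carrier that exchanges acylcarnitine for carnitine across the inner membrane (ENSMUSG00000032602, chr9:108662088-108684641, plus strand), had 14.7, 14.9 and 15.7 FPKM in fasted aortae, against 9.73, 10.3 and 11.3 FPKM in control aortae. Both groups were narrow and did not overlap, with a ratio of 1.45 (difference 0.50 ± 0.044, adjusted p = 6.04e-06). Its promoter window (chr9:108661886-108662185, plus strand, GRCm38.p6) is shown because it holds a near match to the paired letters AGGTCANAGGTCA, with 2 mismatches, which starts 6 bases after the start site and is in capitals.
Slc25a20 promoter: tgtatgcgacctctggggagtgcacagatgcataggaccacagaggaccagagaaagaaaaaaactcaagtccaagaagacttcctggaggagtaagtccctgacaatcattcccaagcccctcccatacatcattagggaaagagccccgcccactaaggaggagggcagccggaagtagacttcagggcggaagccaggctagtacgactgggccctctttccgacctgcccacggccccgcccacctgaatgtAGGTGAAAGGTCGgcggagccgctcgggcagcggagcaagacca

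The other shuttle genes did not pass the test. Cpt2, which returns the acyl group to coenzyme A inside the mitochondrion, had 5.56, 6.87 and 9.40 FPKM in fasted aortae, against 6.27, 7.09 and 8.03 FPKM in control aortae, and the highest and the lowest of the 12 libraries, fasted 3 and fasted 6, were both fasted (difference -0.028 ± 0.10, adjusted p = 0.867). Acsl1, a long-chain acyl-CoA synthetase, ranged over 13.9 to 25.9 FPKM in fasted and 13.2 to 31.9 FPKM in control aortae (difference 0.015 ± 0.20). Slc22a5, the carnitine uptake transporter, averaged 7.83 ± 1.20 FPKM in fasted and 7.65 ± 0.237 FPKM in control aortae. Mlycd, which degrades malonyl-CoA, averaged 4.31 ± 1.52 FPKM in fasted and 3.28 ± 1.58 FPKM in control aortae (difference 0.34 ± 0.23, adjusted p = 0.286). Crat, carnitine acetyltransferase, averaged 11.1 ± 3.26 FPKM in fasted and 9.99 ± 0.590 FPKM in control aortae, and its highest library was fasted 2.

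**Figure D2:**
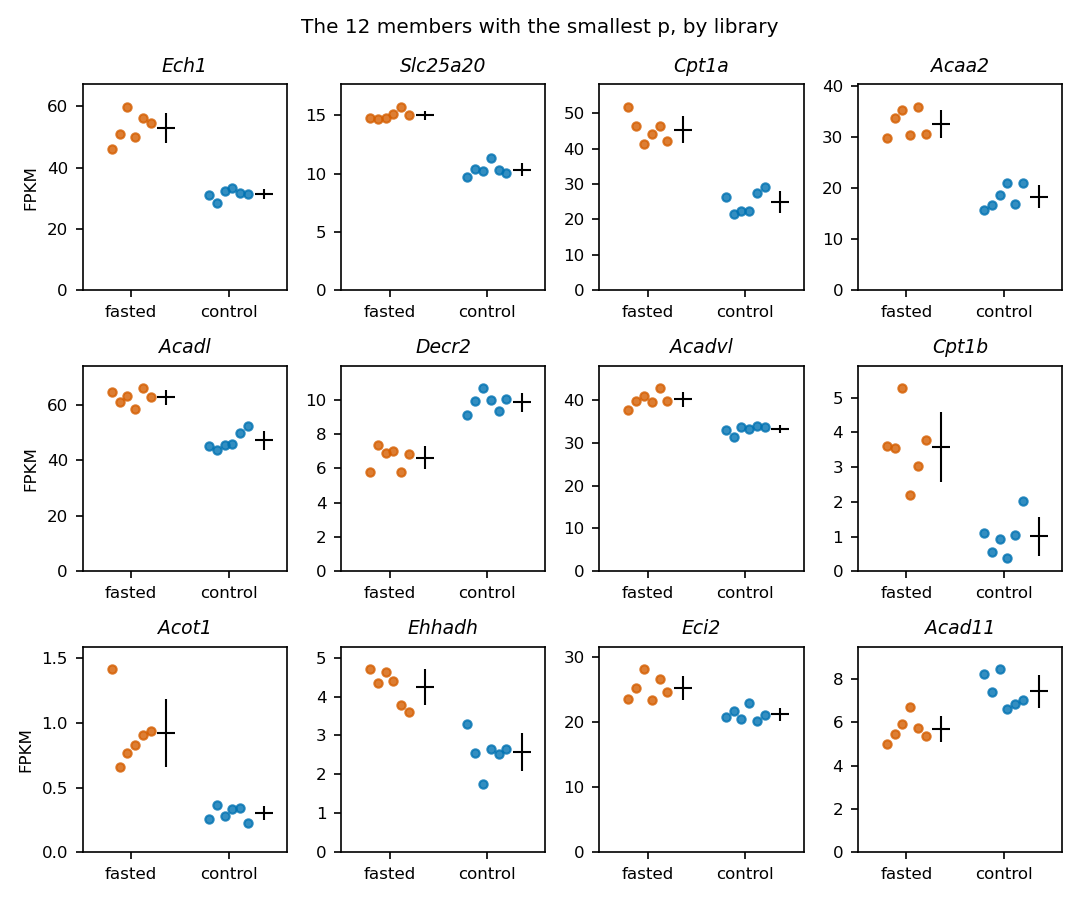
FPKM in each of the 6 fasted and 6 control libraries for the 12 members with the smallest p, each panel with its own axis from 0. Points within a group run from replicate 1 on the left to replicate 6 on the right, and the black marks are the mean ± SD. In 11 panels the groups do not overlap, and in the panel of Acad11 the highest fasted library (6.72 FPKM) lies above the lowest control library (6.60 FPKM).

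The first step of the mitochondrial spiral is carried out by acyl-CoA dehydrogenases that differ in the chain length they prefer. The genes for very long, long and medium chains rose and the gene for short chains did not pass the test. Acadvl, for very long chains, had 37.5, 39.7 and 42.8 FPKM in fasted aortae, against 31.4, 33.4 and 33.8 FPKM in control aortae (ratio 1.21, difference 0.27 ± 0.040, adjusted p = 0.000316). Acadl, for long chains, had 58.5, 62.97 and 66.2 FPKM in fasted aortae, against 43.7, 45.8 and 52.5 FPKM in control aortae (ratio 1.33, difference 0.41 ± 0.051, adjusted p = 9.61e-05). Acadm, for medium chains, had 57.9, 60.8 and 63.7 FPKM in fasted aortae, against 50.2, 53.5 and 57.4 FPKM in control aortae (ratio 1.13, difference 0.18 ± 0.042, adjusted p = 0.00663). In these 3 genes all 6 fasted libraries lay above all 6 control libraries, by a narrow margin in Acadm. Acads, for short chains, had 6.27, 8.72 and 11.8 FPKM in fasted aortae, against 8.95, 9.88 and 10.2 FPKM in control aortae, and the fasted libraries lay on both sides of the control libraries (difference -0.12 ± 0.11, adjusted p = 0.439).

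Acad9, a dehydrogenase best known as an assembly factor of respiratory complex I, had 1.17, 2.25 and 2.66 FPKM in fasted aortae, against 2.04, 3.03 and 3.82 FPKM in control aortae. Its difference of -0.40 ± 0.15 was just outside the threshold (adjusted p = 0.0524), and it passed without control 6 (-0.48, adjusted p = 0.023), without fasted 1 (-0.46, adjusted p = 0.0417), without fasted 2 (-0.45, adjusted p = 0.0493) or without fasted 4 (-0.45, adjusted p = 0.0465). Acadvl was listed as 2 transcripts that did not pass singly, the larger with a difference of 0.24 (adjusted p = 0.155). On the annotation 42.9% of the exon bases of Acadvl are shared with Dvl2 on the opposite strand, which averaged 4.84 ± 1.87 FPKM in fasted and 5.95 ± 0.459 FPKM in control aortae, and whether the counting used strand is not stated.

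After dehydrogenation, Echs1 hydrates shorter chains, Hadh oxidises the hydroxy group and Acaa2 cleaves off acetyl-CoA, while the trifunctional protein made of Hadha and Hadhb does all 3 steps on long chains. Acaa2 (ENSMUSG00000036880) had 29.9, 32.2 and 36.1 FPKM in fasted aortae, against 15.8, 17.9 and 21.1 FPKM in control aortae. The groups lay well apart, with a ratio of 1.78 (difference 0.80 ± 0.080, adjusted p = 1.49e-05). Echs1 had 29.7, 32.3 and 36.8 FPKM in fasted aortae, against 22.8, 27.2 and 32.5 FPKM in control aortae. Its groups overlapped through control 4, the highest control library (difference 0.27 ± 0.080, adjusted p = 0.0235), and its call was lost without control 5 (0.24, adjusted p = 0.0537), without fasted 2 (0.23, adjusted p = 0.0534) or without fasted 5 (0.25, adjusted p = 0.0504). Hadh averaged 33.5 ± 2.98 FPKM in fasted and 33.7 ± 1.75 FPKM in control aortae (difference -0.011 ± 0.060). A stretch of the Echs1 promoter window (chr7:140116468-140116528, minus strand, GRCm38.p6) holds a near match to AGGTCANAGGTCA with 2 mismatches, in capitals.
Echs1 promoter stretch: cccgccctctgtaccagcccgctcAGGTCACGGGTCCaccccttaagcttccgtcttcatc

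The subunits of the trifunctional protein had differences of opposite sign, and neither passed the test. Hadha, the hydratase and dehydrogenase subunit, had 23.4, 25.3 and 26.5 FPKM in fasted aortae, against 25.98, 26.9 and 29.2 FPKM in control aortae (difference -0.11 ± 0.042, adjusted p = 0.0723). Hadhb, the thiolase subunit, had 28.1, 30.4 and 35.6 FPKM in fasted aortae, against 23.3, 27.2 and 31.04 FPKM in control aortae (difference 0.20 ± 0.076, adjusted p = 0.0553). The groups overlapped in both genes. Hadhb passed without control 4 (0.24, adjusted p = 0.0255), without fasted 3 (0.23, adjusted p = 0.0383) or without fasted 4 (0.23, adjusted p = 0.0418). Both genes start from the same stretch of chromosome 5 in opposite directions, with RefSeq start sites 273 bases apart. The promoter window of Hadhb (chr5:30155003-30155302, plus strand, GRCm38.p6) is shown with the 228 bases it shares with the window of Hadha (chr5:30154931-30155230, minus strand) in capitals.
Hadhb promoter: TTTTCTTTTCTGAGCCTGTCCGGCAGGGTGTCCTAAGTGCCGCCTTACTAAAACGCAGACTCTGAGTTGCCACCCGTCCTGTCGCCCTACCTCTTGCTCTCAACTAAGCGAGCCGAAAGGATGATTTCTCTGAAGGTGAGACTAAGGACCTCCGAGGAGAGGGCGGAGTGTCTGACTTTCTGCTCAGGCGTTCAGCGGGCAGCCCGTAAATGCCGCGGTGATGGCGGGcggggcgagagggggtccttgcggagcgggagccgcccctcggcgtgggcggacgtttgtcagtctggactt

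Unsaturated fatty acids need isomerases and reductases to pass through the spiral. Ech1, a dienoyl-CoA isomerase (ENSMUSG00000053898, chr7:28825217-28832247, plus strand), had 46.04, 52.6 and 59.9 FPKM in fasted aortae, against 28.6, 31.5 and 33.4 FPKM in control aortae. The lowest fasted library lay well above the highest control library, and the ratio of 1.69 had the smallest p of all members (difference 0.73 ± 0.062, adjusted p = 4.45e-06). Eci2, an enoyl-CoA isomerase of mitochondria and peroxisomes, rose with 23.4, 24.97 and 28.3 FPKM in fasted aortae, against 20.3, 20.98 and 22.9 FPKM in control aortae, groups that did not overlap (difference 0.24 ± 0.053, adjusted p = 0.00422). Eci1, its mitochondrial counterpart, averaged 18.8 ± 2.24 FPKM in fasted and 18.04 ± 1.04 FPKM in control aortae (difference 0.054 ± 0.070, adjusted p = 0.598).

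Decr2, the dienoyl-CoA reductase of peroxisomes (ENSMUSG00000036775, chr17:26081208-26090337, minus strand), fell. It had 5.79, 6.89 and 7.37 FPKM in fasted aortae, against 9.09, 9.95 and 10.7 FPKM in control aortae, with every fasted library below every control library (ratio 0.673, difference -0.51 ± 0.066, adjusted p = 0.000109). Decr1, the reductase of mitochondria, had 15.7, 18.1 and 19.3 FPKM in fasted aortae, against 15.9, 16.96 and 19.5 FPKM in control aortae, with overlapping groups (difference 0.050 ± 0.059, adjusted p = 0.561).

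Electrons from the acyl-CoA dehydrogenases pass to the electron transfer flavoprotein, made of Etfa and Etfb, and from it through Etfdh to ubiquinone. Etfa rose, with 47.3, 50.2 and 54.6 FPKM in fasted aortae, against 41.4, 44.2 and 49.2 FPKM in control aortae, and control 4 lay within the fasted range (difference 0.17 ± 0.051, adjusted p = 0.0208). Etfdh rose, with 17.9, 20.2 and 22.96 FPKM in fasted aortae, against 13.1, 16.3 and 19.4 FPKM in control aortae, and control 4 again lay within the fasted range (difference 0.31 ± 0.086, adjusted p = 0.0146). Etfb varied widely, over 27.5 to 48.3 FPKM in fasted and 29.4 to 48.8 FPKM in control aortae, and did not pass the test (difference 0.025 ± 0.14, adjusted p = 0.913). On the annotation 53.0% of the exon bases of Etfb are shared with Gm45233 on the same strand, which was not analysed here. The Etfa promoter window holds a near match to AGGTCANAGGTCA with 2 mismatches on the opposite strand, in capitals in the stretch shown (chr9:55512284-55512344, minus strand, GRCm38.p6).
Etfa promoter stretch: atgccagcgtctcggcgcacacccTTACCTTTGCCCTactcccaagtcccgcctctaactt

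Thioesterases free the fatty acid from coenzyme A. Acot1, the cytosolic enzyme, was low and rose, with 0.658, 0.869 and 1.42 FPKM in fasted aortae, against 0.230, 0.308 and 0.366 FPKM in control aortae. The groups did not overlap and fasted 1 was the highest library, with a ratio of 3.04 (difference 0.55 ± 0.086, adjusted p = 0.000434). Only the 6 fasted libraries reached 0.5 FPKM, so Acot1 passed the filter only through the group where it was high. Its rise therefore only describes these values. Acot2, its mitochondrial neighbour on chromosome 12, had 2.80, 3.07 and 3.63 FPKM in fasted aortae, against 2.61, 2.97 and 3.62 FPKM in control aortae (difference 0.055 ± 0.077, adjusted p = 0.628). Acot1 and Acot2 are nearly identical in sequence and the counting could split reads between them, so the value of each is uncertain. Acot13 averaged 23.2 ± 2.60 FPKM in fasted and 23.99 ± 2.45 FPKM in control aortae (difference -0.048 ± 0.083).

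In the peroxisomal route, Ehhadh rose. This bifunctional enzyme hydrates and dehydrogenates straight chains, and its gene (ENSMUSG00000022853, chr16:21761287-21787807, minus strand) had 3.60, 4.37 and 4.72 FPKM in fasted aortae, against 1.75, 2.60 and 3.29 FPKM in control aortae. The groups did not overlap, and control 1 was the highest control library (ratio 1.65, difference 0.56 ± 0.098, adjusted p = 0.000946). Hsd17b4, the other bifunctional enzyme, which also handles branched chains and bile acid precursors, had 23.5, 26.9 and 29.3 FPKM in fasted aortae, against 25.3, 29.5 and 31.6 FPKM in control aortae (difference -0.11 ± 0.061, adjusted p = 0.186). Acad11, an acyl-CoA dehydrogenase family gene, fell, with 5.00, 5.60 and 6.72 FPKM in fasted aortae, against 6.60, 7.21 and 8.48 FPKM in control aortae, and fasted 4 lay above control 4 (difference -0.33 ± 0.076, adjusted p = 0.00527). It was listed as 2 transcripts that did not pass singly, the larger with a difference of -0.15 (adjusted p = 0.641).

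The other peroxisomal members did not pass the test. Acox3, an oxidase of branched chains, had 10.3, 10.6 and 11.1 FPKM in fasted aortae, against 8.64, 9.82 and 10.4 FPKM in control aortae, and only control 1 lay within the fasted range (difference 0.12 ± 0.049, adjusted p = 0.0782). Abcd3, a transporter of the peroxisomal membrane, had 21.2, 24.7 and 28.9 FPKM in fasted aortae, against 20.8, 22.7 and 28.9 FPKM in control aortae (difference 0.081 ± 0.089, adjusted p = 0.529). Its relative Abcd2 was too low to pass the filter, with 0.451, 0.611 and 0.752 FPKM in fasted aortae, against 0.381, 0.407 and 0.469 FPKM in control aortae, and its groups overlapped only through fasted 6. Pex11a, which promotes the division of peroxisomes, had 1.09, 1.34 and 2.01 FPKM in fasted aortae, against 0.966, 1.31 and 1.57 FPKM in control aortae (difference 0.089 ± 0.10, adjusted p = 0.55).

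Acaa1a, a peroxisomal thiolase, had 5.65, 17.8 and 20.2 FPKM in fasted aortae, against 5.20, 20.01 and 21.2 FPKM in control aortae. Its spread came from 3 low libraries, fasted 1 (5.65 FPKM), control 5 (7.99 FPKM) and control 6 (5.20 FPKM), whereas the other 9 lay between 17.2 and 21.2 FPKM. Scp2, a thiolase and sterol carrier, averaged 33.8 ± 2.59 FPKM in fasted and 35.6 ± 4.05 FPKM in control aortae. Crot, which makes medium-chain acylcarnitines for export, averaged 13.99 ± 1.47 FPKM in fasted and 14.5 ± 1.01 FPKM in control aortae. Phyh and Hacl1 act in the alpha-oxidation of branched chains. Phyh averaged 25.1 ± 1.72 FPKM in fasted and 25.9 ± 1.38 FPKM in control aortae, and Hacl1 averaged 4.41 ± 0.861 FPKM in fasted and 4.06 ± 0.294 FPKM in control aortae. On these 5 genes the differences ran from -0.069 to 0.11. Of the exon bases of Hacl1, 31.1% are shared on the annotation with Gm49387 on the same strand, which was not analysed here.

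**Figure D3:**
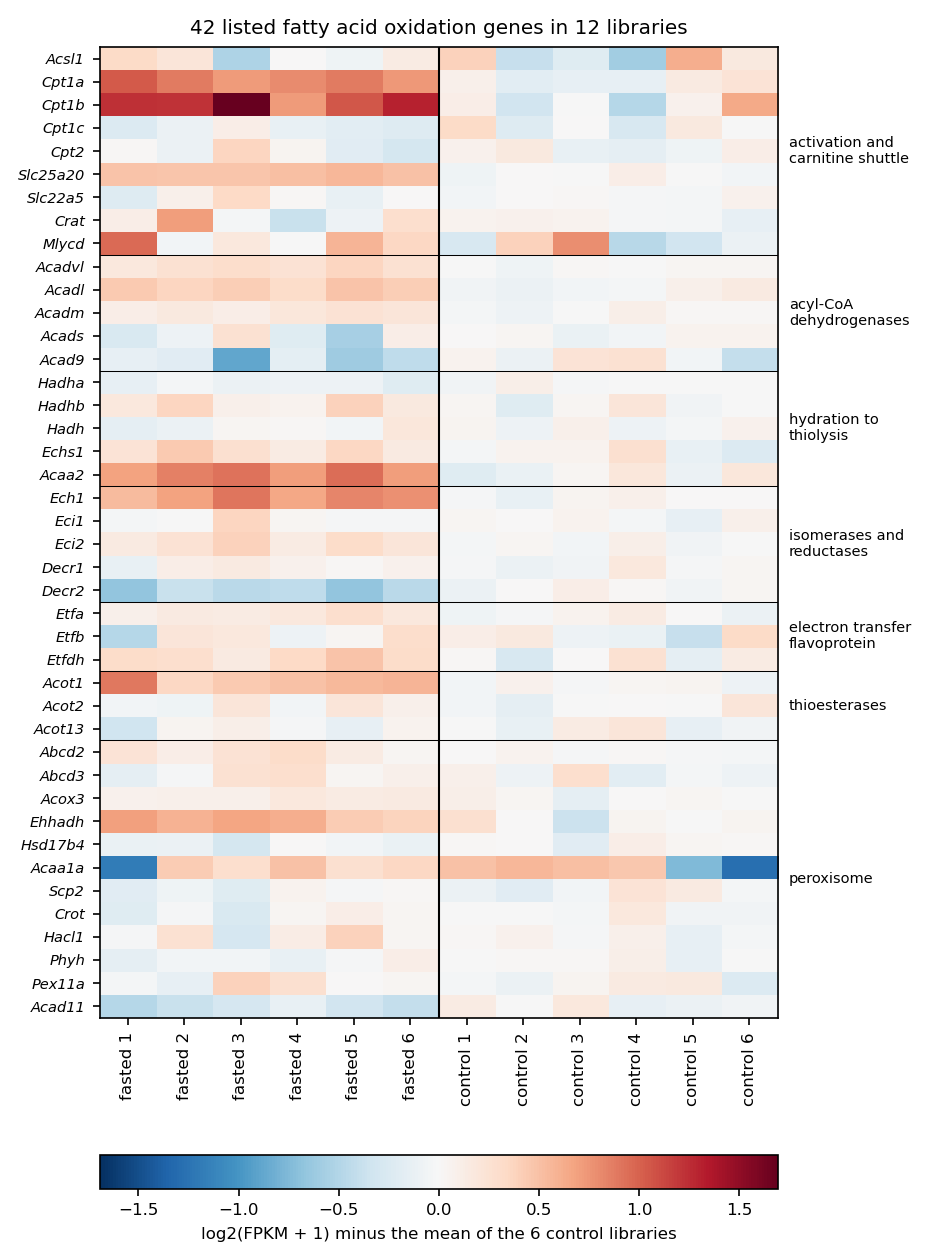
Levels of the 42 listed members (rows, grouped by role) in 6 fasted and 6 control libraries (columns), as log2(FPKM + 1) minus the mean of the 6 control libraries. Red is above that mean and blue below it. Cpt1a, Cpt1b, Slc25a20, Acaa2 and Ech1 are red in all 6 fasted libraries, Decr2 is blue in all 6, and the 3 low libraries of Acaa1a stand out in blue.

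Pairs of members with neighbouring roles were set against each other within each library, as the log2 ratio of their FPKM. The 9 pairs were chosen after the values had been seen, and each was given an exact two-sided permutation test, whose smallest possible p is 0.00216, with adjustment over the 9 pairs. Except for Hadhb to Hadha, each pair set a member that had passed the limma test against a member that had not. The p-values of these ratios were thus partly set by that choice and only describe these values. In 6 pairs the ratio in every fasted library lay above that in every control library. Cpt1a to Cpt2 was 2.71 ± 0.31 in fasted and 1.81 ± 0.20 in control aortae (SD, n = 6 each), a difference of 0.90 (exact permutation p = 0.00216, adjusted p = 0.00325). The same p and adjusted p held for the pairs Acadl to Acads (difference 0.55), Ech1 to Eci1 (0.69), Decr1 to Decr2 (0.63), Ehhadh to Hsd17b4 (0.85) and Acot1 to Acot2 (1.51). In the last pair, Acot1 had passed the filter on low values only through its fasted libraries.

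In the other 3 pairs the groups overlapped. Hadhb to Hadha was 0.31 ± 0.13 in fasted and -0.011 ± 0.18 in control aortae, a difference of 0.32, so the genes with a shared promoter stretch differed unequally (exact permutation p = 0.00649, adjusted p = 0.00731). Slc25a20 to Cpt2 differed by 0.57 with the same p-values. Acadm to Acads differed by 0.32 and did not pass (exact permutation p = 0.0563). Without fasted 3 its difference was 0.42 (exact permutation, adjusted p = 0.013) and without control 4 it was 0.35 (exact permutation, adjusted p = 0.0476), and both passed.

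**Figure D4:**
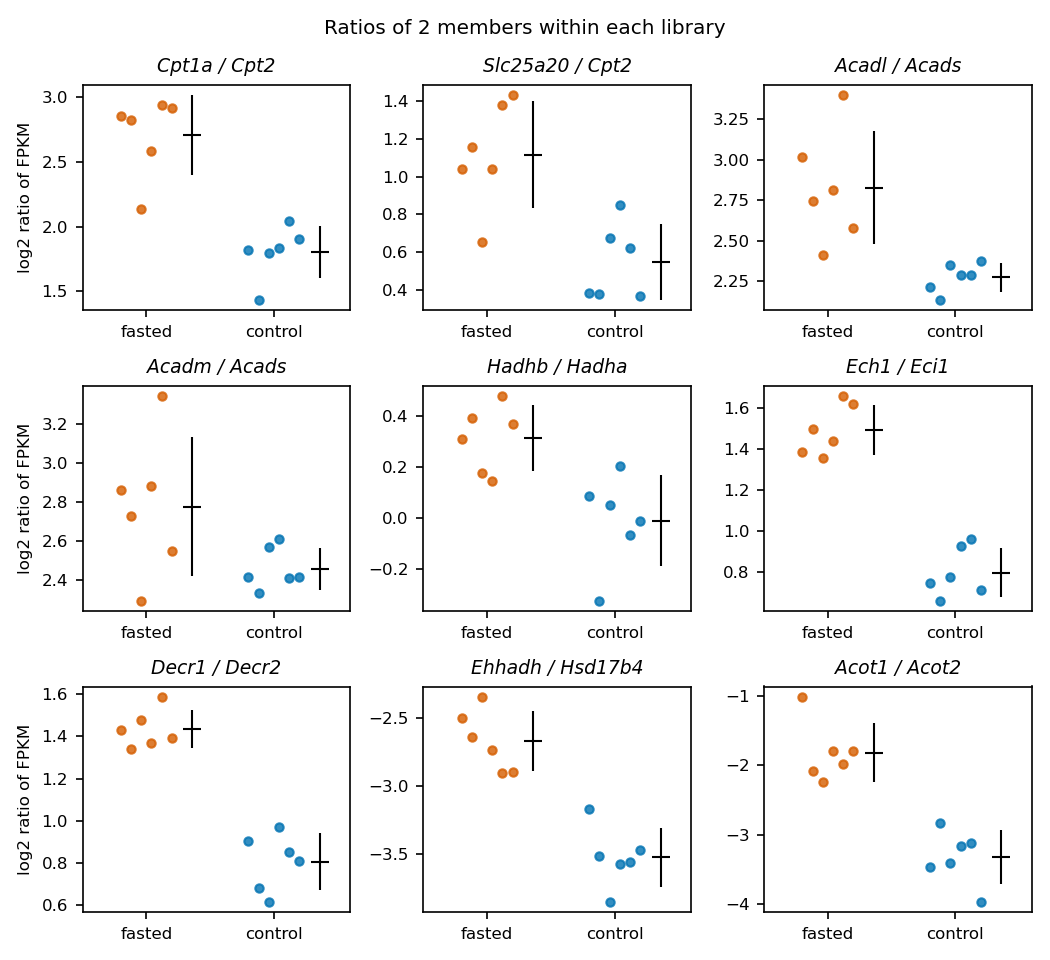
Log2 ratio of the FPKM of 2 members within each library, for 9 pairs, in 6 fasted and 6 control libraries. Points within a group run from replicate 1 on the left to replicate 6 on the right, and the black marks are the mean ± SD. The groups are apart in 6 panels and overlap for Slc25a20 to Cpt2, Acadm to Acads and Hadhb to Hadha.

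At the level of single transcripts, 13 of 57 tested transcripts of the members passed, 12 above and 1 below 0. That is beside 16.2% of all 20599 transcripts tested, with 7.19% above and 8.98% below 0. The 1 transcript that fell is that of Decr2. The main transcript of Acox3 rose although its gene did not pass, with 9.80 ± 0.314 FPKM in fasted and 8.51 ± 0.495 FPKM in control aortae (difference 0.18 ± 0.05, adjusted p = 0.027). The share of a transcript in its gene was tested with limma for 32 transcripts of 12 members, and none passed, against 0.362% of all 14107 shares, while 3 had an unadjusted p under 0.05. Of these, the main transcript of Acox3 made up 92.2 ± 1.70% of its gene in fasted and 87.7 ± 2.14% in control aortae (limma, adjusted p = 0.18), and a minor transcript made up the remainder. The third was a minor transcript of Eci2, with 4.56 ± 0.717% in fasted and 7.40 ± 2.37% in control aortae (limma, adjusted p = 0.313).

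Transcript splits were unstable in several members. Of the 2 transcripts of Etfdh, that with the higher fasted mean was listed at 0 in fasted 6 and control 2 and lay between 6.34 and 15.2 FPKM in the other 10 libraries, whereas the summed level of Etfdh ran only over 17.9 to 22.96 FPKM in fasted and 13.1 to 19.4 FPKM in control aortae. The transcript Crat-202 reached 11.1 FPKM in fasted 2 and 6.90 FPKM in fasted 6, and was at most 0.271 FPKM in the other 10 libraries. In fasted 2 and fasted 6 it exceeded Crat-201, the main transcript by mean, which had 5.60 and 5.25 FPKM there. Sums over transcripts were therefore used for all levels above.

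Promoter windows were found in RefSeq for 35 of the 43 members. The exact paired letters AGGTCANAGGTCA were in none of them and in 13 of 32851 windows of all genes (0.0396%). With up to 2 mismatches the pair was in the windows of 3 members, the Slc25a20, Echs1 and Etfa windows shown above, and in 3.86% of all windows. All 3 of these genes rose, and 12 members that rose had a window. The single letters AGGTCA were in 7 member windows, 4 of them of genes that rose, and in 16.3% of all windows. The letters TCAAGGTCA, which estrogen-related receptors bind, were in no member window and in 0.423% of all windows. These are matches of letters in short windows and say nothing of binding.

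Neighbouring steps outside the member list were counted in 8 lists that hold 85 listed genes, all tested. In all 10 rose and 13 fell, and the median difference was -0.010. Of 9 other synthetases and fatty acid transport proteins, 2 rose and 3 fell. Slc27a1, a fatty acid transport protein of muscle and fat, rose with 15.6 ± 2.59 FPKM in fasted and 9.61 ± 0.817 FPKM in control aortae (difference 0.64 ± 0.096, adjusted p = 0.000344). Acsl3 fell with 4.19 ± 0.279 FPKM in fasted and 6.73 ± 0.843 FPKM in control aortae (difference -0.57 ± 0.075, adjusted p = 0.000126), and Acsl5 fell with 8.43 ± 0.448 FPKM in fasted and 11.9 ± 0.655 FPKM in control aortae (difference -0.45 ± 0.051, adjusted p = 4.5e-05). Both encode long-chain acyl-CoA synthetases, as Acsl1 does.

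Of 4 genes whose enzymes make or use malonyl-CoA, 2 fell and none rose. Acaca, the cytosolic acetyl-CoA carboxylase that makes malonyl-CoA, had a difference of -0.25 ± 0.074 (adjusted p = 0.0227), and its call was lost without control 1 (-0.23, adjusted p = 0.0501) or without control 6 (-0.21, adjusted p = 0.051). Acsf3, a malonyl-CoA synthetase of mitochondria, had a difference of -0.33 ± 0.087 (adjusted p = 0.0127). Acacb, the carboxylase of the outer mitochondrial membrane, differed by -0.19 ± 0.15 without passing the test (adjusted p = 0.373). Of 6 other thioesterases 2 fell, Acot8 (-0.39) and Them4 (-0.26), and none rose. The call of Them4 was lost without control 2, control 3, control 4 or fasted 1 (-0.25 to -0.20).

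Among 13 further peroxisomal genes, 2 fell. These were Amacr, a racemase for branched chains, and Acot8. Of 15 peroxins, which assemble peroxisomes, none rose and 2 fell, Pex6 (-0.53 ± 0.10, adjusted p = 0.00204) and Pex11g (-0.28 ± 0.072, adjusted p = 0.00985).

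Of 5 dehydrogenases of amino acid and sarcosine breakdown that feed the same flavoprotein, 1 fell (Sardh, -0.60 ± 0.13, adjusted p = 0.00378) and none rose. Of 14 regulators of the pathway 4 rose and none fell. Klf15, a transcription factor that fasting and glucocorticoids induce in other tissues, had 17.2, 19.7 and 26.3 FPKM in fasted aortae, against 5.92, 8.65 and 14.5 FPKM in control aortae, with no overlap (difference 1.13 ± 0.18, adjusted p = 0.00043). Pparg (0.31, adjusted p = 0.0327), Ppargc1b (0.21, adjusted p = 0.0393) and Sirt1 (0.34, adjusted p = 0.0339) rose with overlapping groups. The call of Pparg was lost without control 3, 5 or 6 or fasted 1, 2, 4 or 5 (0.24 to 0.31), and that of Sirt1 without control 1, 2, 5 or 6 or fasted 1, 4 or 5 (0.27 to 0.34). Ppara averaged 0.670 ± 0.555 FPKM in fasted and 0.464 ± 0.389 FPKM in control aortae and did not pass (adjusted p = 0.633).

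Genes of mitochondrial content were counted for comparison with the members. Of 20 genes of the respiratory chain, citrate synthase and the outer membrane, 2 rose (Tomm20, 0.20, and Vdac2, 0.15) and 2 fell (Phb, -0.33, and Cycs, -0.23), with a median difference of -0.0096. The call of Cycs was lost without control 3, control 4 or fasted 1 (-0.21 to -0.19). Their FPKM summed to 987.9 to 1064 in fasted and 995.6 to 1064 in control libraries, so the groups overlapped. The sums of the 42 listed members were 823 to 902 FPKM in fasted and 741 to 793 FPKM in control libraries and did not overlap.

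Smooth muscle markers were high in all libraries of this tissue, which is labelled aorta. Their sums were 8906 to 10059.6 FPKM in fasted and 8957 to 11112 FPKM in control libraries. Some markers of fat also rose. Of 6 listed brown adipocyte genes out of 8, 1 rose (Cidea, 0.74), and their sums were 47.8 to 92.2 FPKM in fasted and 32.8 to 60.8 FPKM in control libraries. Ucp1, the uncoupling protein that defines brown adipocytes, had 0.305, 3.01 and 15.8 FPKM in fasted aortae, against 0.130, 0.229 and 6.52 FPKM in control aortae (adjusted p = 0.115), with fasted 3, fasted 1 and control 6 highest. Of 6 tested white and general adipocyte genes 2 rose (Cidec and Lipe), and the sums of 7 listed were 18.1 to 143.7 FPKM in fasted and 25.05 to 51.9 FPKM in control libraries. Elovl3, Otop1 and Lep were not analysed here.

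Without fasted 3, fasted 1 and control 6, the 3 libraries highest in Ucp1, 13 members rose and 3 fell. Cpt1b had a difference of 1.20 there (adjusted p = 0.000745), beside 1.21 with all libraries. Among the libraries kept, Ucp1 was 0.305 to 3.95 FPKM in fasted and 0.130 to 0.245 FPKM in control aortae. The groups were thus fully apart in Ucp1, and this setting did not even it out between them. With brown and white adipocyte scores as covariates 11 members rose and 1 fell, with Cpt1b at 0.89 (adjusted p = 0.0176), Cpt1a at 0.74 (adjusted p = 0.00113) and Acaa2 at 0.76 (adjusted p = 0.00111). The calls of Echs1, Eci2, Etfdh and Acad11 were lost in that fit. Fasted 4, whose Ucp1 was 0.305 FPKM (control median 0.229 FPKM), had 2.20 FPKM of Cpt1b and 43.98 FPKM of Cpt1a. Both lay above the highest control library. That library was not low in white adipocyte markers. Its white adipocyte score, the mean of the standardised markers, was 0.74, against -0.639 to 0.461 in control libraries. The part of fat content in its values was not tested.

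**Figure D5:**
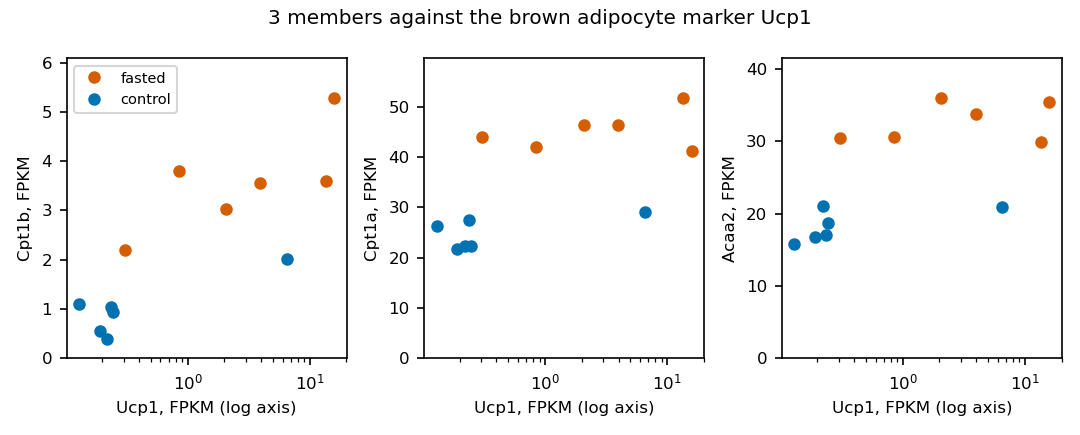
Cpt1b, Cpt1a and Acaa2 (FPKM, axis from 0) against the brown adipocyte marker Ucp1 (FPKM, log axis) in 6 fasted and 6 control libraries. In all 3 panels the fasted libraries lie above the control libraries. Under 1 FPKM of Ucp1 lie fasted 4 (0.305 FPKM) and fasted 6 (0.845 FPKM). The control libraries there have 0.130 to 0.245 FPKM of Ucp1, so the groups share no Ucp1 level in that range.

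Of the cardiac muscle markers, Myh6, Tnnt2, Tnni3, Nppa, Myl7, Myl3 and Actc1 were highest in fasted 5 and fasted 6. Myh6 had 27.5 and 16.7 FPKM there, against 0.689 to 6.64 FPKM in control and at most 1.76 FPKM in the other fasted libraries. Ryr2, at 8.81 and 7.57 FPKM there, lay within its control range of 6.70 to 10.2 FPKM. Myl2 was highest in control 2 (6.76 FPKM). Tnnt2 was also higher in the other fasted libraries (25.2 to 41.3 FPKM) than in control libraries (12.2 to 23.8 FPKM). The sums of the cardiac markers were 42.3 to 236 FPKM in fasted and 38.1 to 56.3 FPKM in control libraries. Of 7 tested, 1 rose (Tnnt2, 1.44). Without fasted 5 and fasted 6, 12 members rose and 2 fell, and Cpt1b had a difference of 1.22 (adjusted p = 0.00316). The calls of Echs1, Etfa and Etfdh were lost, and Abcd2 was among the 12. Abcd2 entered this fit only through its fasted libraries, because its highest control library had 0.469 FPKM. Its rise there therefore only describes these values. Of 10 skeletal muscle markers 3 were listed and 0 passed limma's test, 0 also at an unadjusted p under 0.05, with sums of 3.18 to 5.60 FPKM in fasted and 3.47 to 5.89 FPKM in control libraries.

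Of 8 endothelial markers 2 rose (Pecam1, 0.77, and Cldn5, 0.77) and none fell, with sums of 198 to 277 FPKM in fasted and 142 to 218 FPKM in control libraries. Of 8 smooth muscle markers 1 rose and 1 fell, of 8 fibroblast markers 2 rose and 3 fell, and of 8 macrophage markers 1 rose and 1 fell. Of 4 listed erythroid markers none passed limma's test, with sums of 269 to 1674 FPKM in fasted and 337 to 1868 FPKM in control libraries. Of 6 hepatocyte markers only Cyp2e1 was listed, and it rose (2.13), with 8.15 to 40.6 FPKM in fasted and 1.89 to 5.07 FPKM in control aortae. Its highest fasted and control libraries were fasted 3 and control 6. The same held for Cidec, Adipoq, Plin1, Cfd and Pnpla3 but not for Retn and Lipe, whose highest control library was control 1. The part of endothelial, fibroblast and macrophage content in the members' differences was not tested.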

How the data were processed

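Per the labels' protocols, poly(A) RNA of dissected aortae was made into strand-specific libraries and read from both ends. The submitters' processing notes name HISAT2, StringTie, cutadapt and FastQC and the build GRCm38, without versions, settings or annotation. The authors deposited FPKM per transcript. No listed transcript averages under 0.5 FPKM in both groups, so rarer ones are not analysed here. FPKM divides by the library total, so abundant genes can shift the others.

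Transcripts were assigned to genes with GENCODE M21 (21493 identifiers matched with their version, 1162 with another, 44 not at all). Two-sided tests used limma 3.58.1 (R 4.3.3, mean trend) on log2(FPKM + 1) of genes reaching 0.5 FPKM in 6 libraries. Shares of transcripts were tested after an arcsine square-root transformation, for genes of at least 1 FPKM. The scripts were tested on simulated data. Between any 2 libraries, 2.55% to 7.85% of genes never under 1 FPKM had values within 1% of each other. Of 42 listed members, 16 have exons that another gene overlaps. Promoters are from RefSeq (GRCm38.p6).

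Every member is described. In full are those of the 12 smallest p, those that fell and 20 fixed by name, and up to 3 genes of a related list by p. Some related genes that this rule names are not reported here. The members were given by symbol, with no threshold on a measured value, but members and lists were chosen with earlier results of these data known, so their counts are descriptions. Alternatives were other pseudocounts, filters and scalings, no trend, the replicate number as a block, the most abundant transcript, marker scores as covariates and leaving out each library. The ratios of pairs and the 2 settings without marker-rich libraries were added after seeing the data.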

Additional observations from a re-analysis of the deposited data

Results flagged for a closer look

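In 9 of 130 groups of 6 libraries, over 65 genes, the highest or lowest library lay apart from the other 5 by more than Dixon's critical share of the group's range at 95%. Chance does this in about 1 of 20 groups. Among members, fasted 3 had 6.74 FPKM of Cpt1c (next library 5.72 FPKM) and 23.4 FPKM of Eci1 (next library 18.5 FPKM). Fasted 1 had 1.42 FPKM of Acot1, with the next library at 0.935 FPKM, and 5.65 FPKM of Acaa1a, with the next library at 17.2 FPKM. Control 2 had 31.4 FPKM of Acadvl, the lowest of its group (next library 33.01 FPKM), and 29.2 FPKM of Hadha, the highest of its group (next library 27.01 FPKM). Control 4 had 16.5 FPKM of Crot, with the next library at 14.4 FPKM. Among related genes, fasted 3 had 4.39 FPKM of Mcat, a malonyl transferase of mitochondrial fatty acid synthesis (next library 3.43 FPKM), and 7.73 FPKM of Pex5, a receptor for peroxisomal import (next library 11.5 FPKM). Of the 9 values, 4 belong to fasted 3, the library that stood apart on the second principal component.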

How the results depend on the processing

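The count of members past the threshold, 16 with all libraries, ran from 12 to 18 under 25 other settings. The differences of the 14 members that rose and the 2 that fell kept their sign in all of these. The calls of Cpt1a, Cpt1b, Slc25a20, Acadl, Acadm, Acaa2, Ech1, Decr2 and Ehhadh held in all 25 and that of Acot1 in the 24 that tested it. With adipocyte scores as covariates 2259 genes and 15 related genes passed, instead of 3821 and 23, and the cause was not tested. The ratio of Acadm to Acads passed with a pseudocount of 1 FPKM (0.30, exact permutation, adjusted p = 0.0433), and when libraries were left out it ran from 0.21 to 0.42.

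Signs turned only in members and related genes that did not pass. With adipocyte covariates the differences were -0.0040 for Acsl1, -0.036 for Slc22a5, 0.034 for Hadh, -0.021 for Eci1, -0.085 for Etfb, 0.017 for Acot13, 0.039 for Scp2 and 0.048 for Crot. With muscle covariates Cpt2 was 0.043. With the most abundant transcript Crat was -0.35 and Pex5 -0.059. Hadh was 0.018 with median-of-ratios scaling and 0.016 with TPM. Without the 3 libraries highest in Ucp1, Hadh was 0.029 and Crot 0.025. Without the 2 highest in Nppa, Cpt2 was 0.082 and Etfb -0.046. Leaving out single libraries gave ranges of -0.10 to 0.14 for Acsl1, -0.11 to 0.026 for Cpt2, -0.045 to 0.066 for Slc22a5, -0.022 to 0.19 for Crat, -0.052 to 0.018 for Hadh, -0.0069 to 0.071 for Eci1, -0.053 to 0.13 for Etfb, -0.076 to 0.0091 for Acot13 and -0.15 to 0.36 for Acaa1a.

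Samples with the same replicate number did not deviate together (correlations from -0.0063 to 0.085), and 1 of 6 fasted libraries correlated best with its own number. No pairing by number was thus visible in these values, but such correlations cannot show that the samples were not matched. With the replicate number as a block, 3652 genes, 16 members (14 above and 2 below 0), 19 related genes and 10 member transcripts passed, no member call was changed, and the call of Them4 was lost (adjusted p = 0.0543). Depth per library is unknown, so no counting interval could be given, and members near 0.5 FPKM, such as Abcd2 and Acot1, have the least support.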
